A study of Mus musculus with 3 samples.

Results

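The protein-coding and non-coding genes of the 4 mouse Hox clusters were examined in mpkDCT4a cells, an immortalised line from mouse kidney whose labelled cell type is the distal convoluted tubule (DCT). Every gene that GENCODE M21 places between the outermost protein-coding Hox genes of a cluster was taken. This gave 85 of the 55487 genes in the table, namely 39 coding Hox genes, 3 other protein-coding genes and 43 non-coding genes. The Hoxa cluster (chromosome 6, 52155590 to 52260880, GRCm38) held 31 of them, Hoxb (chromosome 11, 96194316 to 96368256) and Hoxd (chromosome 2, 74668310 to 74765142) 19 each, and Hoxc (chromosome 15, 102921103 to 103036852) 16.

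RNA came from 3 samples labelled as replicates of the line, with no genotype or added treatment named, and the labels do not say whether they were separate cultures. All were kept at 37 °C in medium with dexamethasone (50 nM), triiodothyronine (1 nM), epidermal growth factor (10 ng/ml), insulin (5 µg/ml), glucose (20 mM), transferrin, selenate, glutamine and fetal calf serum (2%), so every value below is from cells exposed to these agents. With 1 group there is no contrast between conditions. The questions open to these data are which cluster genes were expressed, at what level relative to one another, and how far the libraries differed.

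Hox genes encode homeodomain transcription factors that give cells their position along the body axis. Their order on the chromosome runs parallel to the order in which they are used, from group 1 genes at the anterior end to group 13 genes at the posterior end, and genes with the same number in different clusters are paralogs. Many bind DNA together with TALE homeodomain cofactors of the PBX, MEIS and PKNOX families. In the kidney, the group 11 genes are required for the metanephric mesenchyme to induce the ureteric bud, and the group 10 genes act in the stroma. Several clusters also carry antisense RNAs, long intergenic RNAs and the miR-10 and miR-196 genes.

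Total depth was low, at 436983 counts for replicate 1, 482418 for replicate 2 and 443192 for replicate 3, and the 85 cluster genes received 320, 386 and 376 of these. Between the 3 libraries the genes varied by little more than counting error, with a biological coefficient of variation of 0.0394 over 12473 genes, so the replicates give little information on variation between cultures. Levels are given as counts-per-million (CPM), or as transcripts-per-million (TPM), which divides by exon length and is used wherever genes are compared with each other, as mean ± SD over the 3 libraries. Detection was set at 1 CPM on average over the libraries, which 2 counts in all reach. Where no library had a count, levels up to 2.20 CPM are possible (3 counts over the 3 totals added together), and this limit, like all intervals below, covers counting error only. Of all protein-coding genes 50.6% were detected, and the marker lists lay near or below that share. Of 12 markers of the DCT 5 were detected (Wnk4, Cnnm2, Kcnj10, Trpm6 and Egf), with a summed level of 66.3 to 94.1 CPM per library. The defining cotransporter gene Slc12a3 had 0 counts, as did Pvalb, Klhl3, Calb1, Emx1, Sall3 and Tmem52b. Of other cell types, 5 of 10 fibroblast and smooth muscle markers (Tagln, Col1a1, Acta2, Des and Pdgfrb; summed 15.7 to 29.0 CPM; Col3a1, Lum and Pdgfra at 0), 1 of 6 endothelial markers (Flt1; 9.23 to 11.2 CPM; Pecam1, Cdh5, Kdr, Tek and Emcn at 0) and 2 of 6 leukocyte markers (Csf1r and Cd68; 37.3 to 62.7 CPM; Ptprc, Lyz2, Cd3e and Adgre1 at 0) were detected, and their part in the Hox levels was not tested.

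Coding Hox genes were expressed from all 4 clusters, with most counts in groups 7 to 10. Of the 39 genes 28 (71.8%) were detected, against 50.6% of all 21974 protein-coding genes. The 12 genes of groups 7 to 10 held 762 of the 911 coding Hox counts, or 83.6% (95% exact binomial interval 81.1 to 86.0%), with shares of 82.2%, 82.6% and 86.0% in replicates 1, 2 and 3. All protein-coding genes had a median of 1.51 TPM, and those detected 31.4 TPM. For these 12 genes the median was 50.7 TPM, against 5.48 TPM for the 18 genes of groups 1 to 6 and 0 TPM for the 9 genes of groups 11 to 13. At 10 CPM or more stood 11, 3 and 1 genes of these groups (91.7%, 16.7% and 11.1%), against 40.8% of protein-coding genes. This division was taken over from an earlier description of the same data and is no independent evidence.

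**Figure D1:**
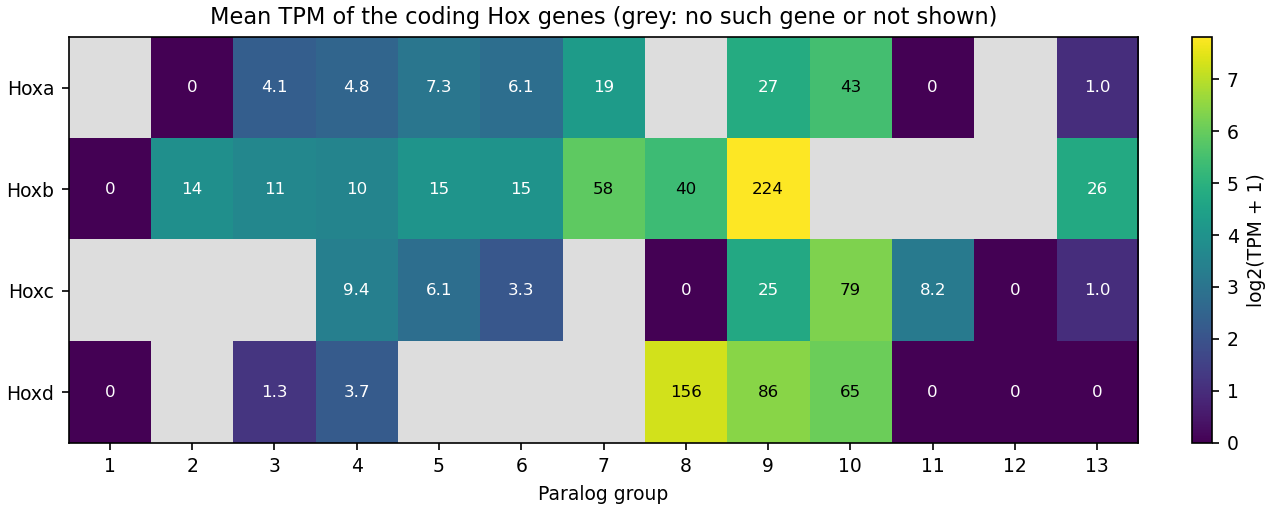
Mean TPM over 3 libraries of the coding Hox genes, except for 1 not reported here, with clusters in rows and paralog groups in columns, coloured by log2(TPM + 1). The high values lie in groups 7 to 10, with Hoxb9 at 224 TPM, and Hoxc8 stands at 0 among them.

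Hoxb9 was the highest gene of the clusters. It had 61, 76 and 77 counts in replicates 1, 2 and 3, or 199.9, 226 and 247 TPM (224 ± 23.7 TPM, n = 3; ENSMUSG00000020875, chromosome 11, 96271457 to 96276595, plus strand). Hoxd8 followed with 42, 49 and 67 counts and 156 ± 39.8 TPM (ENSMUSG00000027102, chromosome 2, 74704615 to 74707933, plus strand). Hoxb9 lay above Hoxd8 in every library, and their TPM ratio over the summed counts was 1.44 with a counting interval of 1.17 to 1.79. Both values lie above those of every other coding Hox gene in each library. Hoxb9 alone took 23.5% of the coding Hox counts (20.8 to 26.4%) and Hoxd8 17.3% (14.9 to 20.0%).

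Below Hoxd8 the order of the genes was mostly not resolved. Hoxd9 had 15, 25 and 28 counts (85.8 ± 24.8 TPM), Hoxc10 20, 24 and 12 (78.9 ± 23.7 TPM), Hoxd10 8, 17 and 19 (65.1 ± 25.3 TPM) and Hoxb7 16, 10 and 7 (58.2 ± 26.0 TPM). The libraries did not rank these 4 genes alike: Hoxc10 and Hoxb7 were lowest in replicate 3, where Hoxd9 and Hoxd10 were highest. Hoxa10 (19, 15 and 18 counts; 43.2 ± 7.18 TPM), Hoxb8 (11, 18 and 10; 39.6 ± 11.2 TPM) and Hoxa9 (25, 18 and 12; 26.8 ± 10.2 TPM) came next. Hoxb13 (8, 7 and 6; 25.8 ± 4.25 TPM), Hoxc9 (5, 10 and 8; 25.4 ± 7.28 TPM) and Hoxa7 (5, 9 and 6; 18.6 ± 4.83 TPM) closed the 12 highest. Of the 15 pairs of neighbours compared in this order and within groups 9 and 10, 5 had the same direction in every library and 4 had a counting interval that left out 1. An exact two-sided sign-flip permutation test with 3 libraries cannot go below p = 0.25, the value these 5 pairs reached (adjusted p = 0.75 over the 15 pairs).

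**Figure D2:**
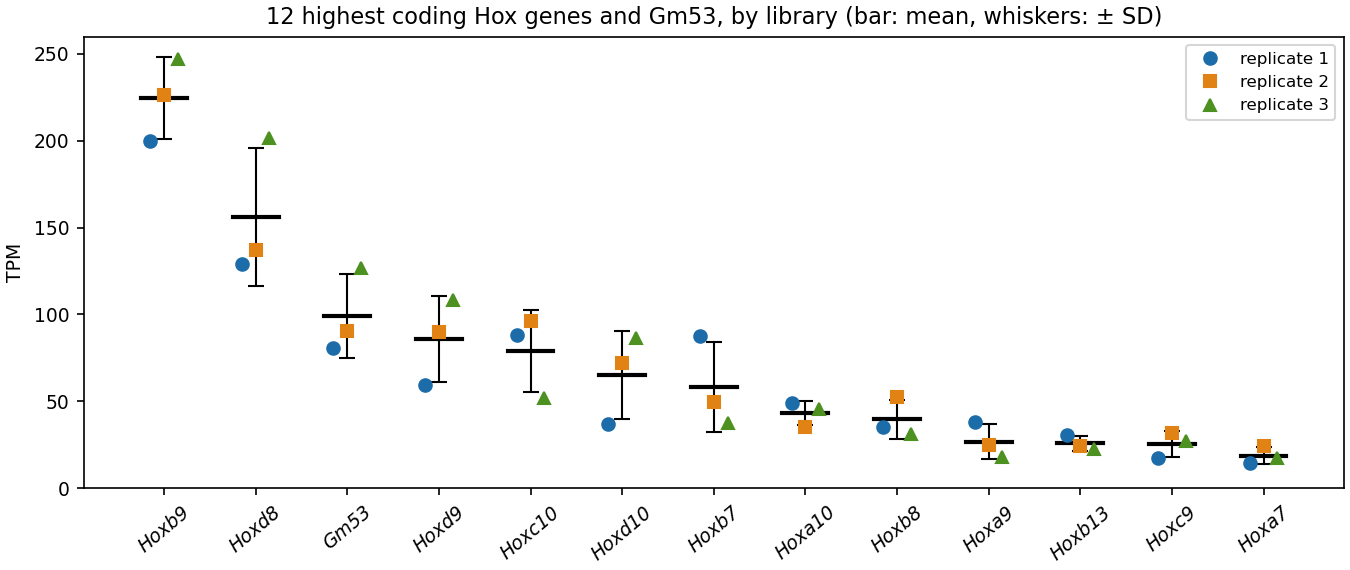
TPM in each of the 3 libraries for the 12 highest coding Hox genes and the long intergenic RNA gene Gm53, with bars at the mean and whiskers of 1 SD. Hoxb9 and Hoxd8 stand above the other coding genes in each library, while the points of the genes from Hoxd9 to Hoxb7 overlap.

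Some paralogs with the same number differed in level and others were not separated. In group 9, all 4 genes were detected, and Hoxb9 exceeded Hoxd9 2.61-fold per length (counting interval 1.98 to 3.48) and Hoxd9 exceeded Hoxa9 3.23-fold (2.23 to 4.70), each in all 3 libraries. The mean log2 ratio of Hoxd9 to Hoxa9 fell from 1.70 to 0.91 with the longest transcript as length, and their counts without length (68 and 55) had a ratio of 1.24 (0.854 to 1.80), which includes 1. Hoxa9 and Hoxc9 were not separated, at a ratio of 1.04 (0.630 to 1.78), and the level of Hoxa9 depends on the length used, since its exons span 5580 bases in union and 3226 in the longest transcript. In group 8, Hoxd8 lay 3.89-fold above Hoxb8 (2.73 to 5.67), whereas Hoxc8 had 0 counts in every library. With Hoxc8 set at a floor of 3 counts over all libraries, Hoxd8 was 54.4-fold and Hoxb8 14.0-fold higher per length. The lower 95% counting limits of the 2 ratios, from the observed counts, were 43.7-fold and 10.8-fold. No exon of Hoxc8 overlaps an exon of another gene, and 0.432% of its 50-base stretches occur in same-sense transcripts of other genes. In group 10 all 3 genes were detected and stood close together, with Hoxc10 over Hoxd10 at 1.21 (0.801 to 1.84) and Hoxd10 over Hoxa10 at 1.52 (0.996 to 2.32). In group 7 Hoxb7 lay 3.07-fold above Hoxa7 per length (1.71 to 5.65), but their counts without length had a ratio of 1.65 (0.919 to 3.03), which includes 1. The pairs across groups 7 and 8 were chosen with the levels known, and no test is given for them.

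Summed over its coding genes, the Hoxb cluster stood at 417, 430.5 and 396 TPM in replicates 1, 2 and 3 (414 ± 17.3 TPM), and Hoxd at 231, 301 and 403 TPM (312 ± 86.4 TPM). Hoxc reached 132 ± 17.4 TPM and Hoxa 116 ± 26.9 TPM. Hoxb and Hoxd exceeded Hoxc and Hoxa in every library, but Hoxd lay above Hoxb in replicate 3, and Hoxc and Hoxa differed by less than their spread and changed places between libraries.

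The shares of Hoxd and Hoxa differed between libraries. Hoxd took 24.3% of coding Hox counts in replicate 1 (19.3 to 29.8%), 28.0% in replicate 2 (23.3 to 33.2%) and 38.1% in replicate 3 (32.7 to 43.8%). Hoxa took 21.7% (17.0 to 27.1%), 15.9% (12.1 to 20.3%) and 12.4% (8.91 to 16.6%). For both clusters the intervals of replicates 1 and 3 do not overlap, in opposite directions, while Hoxb (39.4 to 43.3%) and Hoxc (10.1 to 12.8%) stayed within overlapping intervals. The shares are parts of 1 total, so a rise in one lowers the others, and the opposite directions are not independent. The intervals are not adjusted for the number of clusters and libraries compared. All 3 Hoxd genes of at least 10 CPM were lowest in replicate 1 and highest in replicate 3. This was not particular to Hoxd, since 1 of the 7 such Hoxb genes, Hoxb9, and the non-coding Gm53 did the same. The share of all genes with this order was not computed. The 3 such Hoxa genes did not move together, with Hoxa7 lowest in replicate 1, Hoxa10 in replicate 2 and Hoxa9 in replicate 3.

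Gene by gene, these differences did not pass a test. Of the 34 cluster genes detected, 0 varied between the libraries beyond counting error by chi-square, adjusted (Benjamini-Hochberg) over all 12473 detected genes, of which 0.0401% passed. Without adjustment 1 of the 34, Hoxd8, was below 0.05, against 4.89% of all genes tested. Genes with very few counts could not pass this test, since Hoxd3, with both of its 2 counts in replicate 3, had an unadjusted chi-square p of 0.128. With only genes of a mean of at least 5 counts tested, 16 cluster genes remained and 0 passed.

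**Figure D3:**
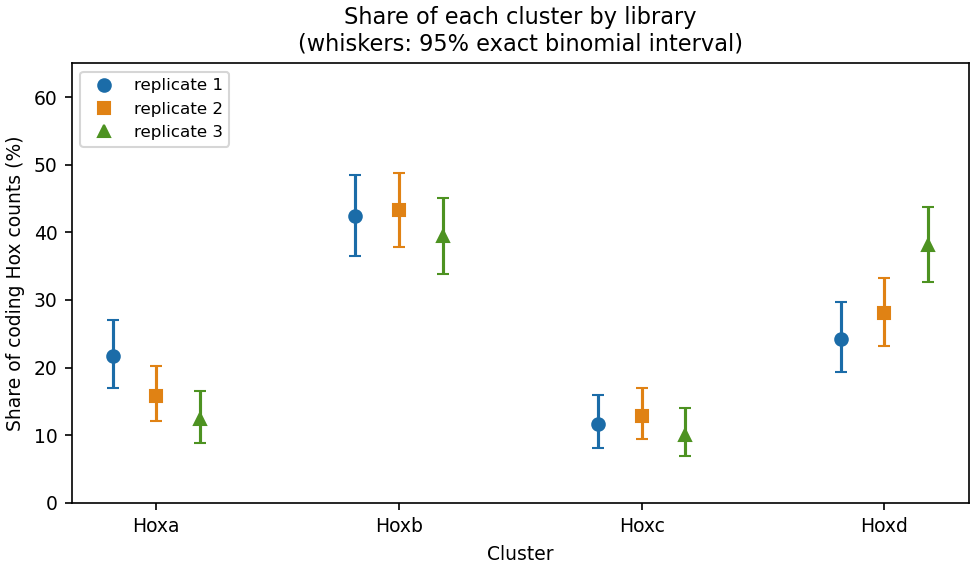
Share of the coding Hox counts that each cluster took in each library, in percent, with 95% exact binomial intervals. The Hoxd share is 24.3% in replicate 1 and 38.1% in replicate 3, and the Hoxa share 21.7% and 12.4%.

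Within the Hoxd cluster nearly all counts lay on 3 adjacent genes. Hoxd8, Hoxd9 and Hoxd10 held 270 of its 276 coding counts. Hoxd11, Hoxd12 and Hoxd13 on one side had 0 counts in every library, and on the other side Hoxd4 had 2, 1 and 1, Hoxd3 0, 0 and 2 and Hoxd1 none. With Hoxd11 set at the floor of 3 counts, Hoxd10 was 34.0-fold higher than this neighbour per length (lower 95% counting limit 26.5-fold). Hoxd8 was 42.4-fold above Hoxd4 (16.3 to 158). Hoxd3 and Hoxd4 are uncertain, since 62.3% and 52.3% of their exon bases lie in exons of other genes on the same strand, among them the coding gene Gm28230 (1 count), which shares 95.8% of its exon bases with them.

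The promoters on both sides of this border are shown because Hoxd10 and Hoxd11 mark where counts along the cluster fell to 0. Each runs from 250 bases before to 50 after a RefSeq start (GRCm38.p6, chromosome 2, plus strand, 5′ to 3′). Capitals mark matches, on either strand, to the TATA box (TATAAA), the CCAAT box (CCAAT), the GC box (GGGCGG) or the composite HOX-PBX site (TGATNNAT). Hoxd11 has 2 such starts.
Hoxd8, chr2:74704365-74704664: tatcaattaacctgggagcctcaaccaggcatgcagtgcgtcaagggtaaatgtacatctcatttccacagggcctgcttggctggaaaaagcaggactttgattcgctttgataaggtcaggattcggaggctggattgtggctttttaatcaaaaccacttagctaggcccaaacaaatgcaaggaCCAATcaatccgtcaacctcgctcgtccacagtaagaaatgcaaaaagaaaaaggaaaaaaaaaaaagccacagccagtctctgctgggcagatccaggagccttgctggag
Hoxd9, chr2:74697513-74697812: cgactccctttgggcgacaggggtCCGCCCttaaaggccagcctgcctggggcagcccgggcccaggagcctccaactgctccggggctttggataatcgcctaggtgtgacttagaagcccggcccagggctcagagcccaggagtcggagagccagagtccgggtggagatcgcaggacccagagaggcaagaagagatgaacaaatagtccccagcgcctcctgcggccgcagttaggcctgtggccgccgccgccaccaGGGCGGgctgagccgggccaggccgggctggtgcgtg
Hoxd10, chr2:74691641-74691940: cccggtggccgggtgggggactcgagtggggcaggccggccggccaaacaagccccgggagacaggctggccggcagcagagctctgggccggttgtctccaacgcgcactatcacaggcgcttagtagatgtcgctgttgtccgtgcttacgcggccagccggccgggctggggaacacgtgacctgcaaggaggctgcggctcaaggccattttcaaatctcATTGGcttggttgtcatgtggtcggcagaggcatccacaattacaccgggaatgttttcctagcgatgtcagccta
Hoxd11, chr2:74679308-74679607: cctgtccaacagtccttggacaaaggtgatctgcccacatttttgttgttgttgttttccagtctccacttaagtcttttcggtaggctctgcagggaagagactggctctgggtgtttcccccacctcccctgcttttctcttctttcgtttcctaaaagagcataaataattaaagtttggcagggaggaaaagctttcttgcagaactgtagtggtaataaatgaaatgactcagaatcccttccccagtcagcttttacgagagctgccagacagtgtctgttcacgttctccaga
Hoxd11, chr2:74682073-74682372: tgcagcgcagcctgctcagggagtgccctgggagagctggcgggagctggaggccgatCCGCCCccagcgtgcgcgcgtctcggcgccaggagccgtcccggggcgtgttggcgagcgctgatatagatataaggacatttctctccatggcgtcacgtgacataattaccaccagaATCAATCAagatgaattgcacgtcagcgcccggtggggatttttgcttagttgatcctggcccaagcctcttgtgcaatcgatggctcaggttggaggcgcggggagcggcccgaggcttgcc

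CpG content was not ordered by level in these windows. Hoxd8, the highest of these genes, had 6 CpG dinucleotides in its window, Hoxd9 had 20, Hoxd10 had 22, and the Hoxd11 windows had 4 and 25. RefSeq windows were matched for 22 of the 39 coding Hox genes (24 windows), with a median of 14.5 CpG against 7 over all 32851 windows. The CCAAT box was found in 15 of the 24 windows (62.5%, against 37.4% of all windows), the GC box in 10 (41.7% against 35.7%), the TATA box in 4 (16.7% against 13.6%) and the HOX-PBX site in 4 (16.7% against 8.85%). A match is a description of the letters and not a binding site.

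In the Hoxa and Hoxc clusters the counts were also low or at 0 from group 11 on. Hoxa11 had 0 counts, and with it set at the floor of 3 counts Hoxa10 was 12.1-fold higher per length (lower 95% counting limit 9.51-fold). Of the Hoxa11 exon bases 35.0% lie in exons of Hoxa11os on the other strand. Reads there may go uncounted, since the strand setting is not known, and the limit does not cover this. Hoxa13 had 1 count. Hoxc10 lay 9.88-fold above Hoxc11 per length (4.27 to 28.1), which had 2, 0 and 4 counts, and Hoxc12 had none and Hoxc13 had 1. The group 11 genes required in the metanephric mesenchyme were thus at 0, 6 and 0 counts for Hoxa11, Hoxc11 and Hoxd11. Of 10 genes linked to that programme 6 were detected, near the 50.6% of protein-coding genes, among them Sall1 (93.8 ± 19.0 TPM), Pax2 (56.1 ± 4.46 TPM) and Eya1 (5.93 ± 2.31 TPM), and Six2, Ret, Itga8 and Wt1 had 0 counts. On the other side of the block, Hoxc4, Hoxc5 and Hoxc6 had 9, 7 and 3 counts, and the Hoxa genes of groups 1 to 6 had 22 counts together, led by Hoxa3 with 9, with Hoxa2 at 0.

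In the Hoxb cluster counts were found along nearly the whole length. Of its 10 coding genes 9 were detected, against 8 of 11 in Hoxa, 6 of 9 in Hoxc and 5 of 9 in Hoxd. Beyond Hoxb9, Hoxb8 and Hoxb7 (3.82-fold above Hoxb6 per length, 1.88 to 8.37), the genes from Hoxb6 to Hoxb2 had means between 10.4 ± 6.32 TPM (Hoxb4) and 15.4 ± 3.72 TPM (Hoxb5), and Hoxb2, the last before Hoxb1 (0 counts), had 5, 7 and 6 counts (13.9 ± 1.67 TPM). Hoxb13, separated from Hoxb9 by 74009 bases, was the only gene of groups 11 to 13 with a count in every library. Hoxb9 exceeded it 8.73-fold per length (5.57 to 14.4). Of the coding Hox genes, Hoxa2, Hoxa11, Hoxb1, Hoxc8, Hoxc12, Hoxd1, Hoxd11, Hoxd12 and Hoxd13 had 0 counts, which is 9 of 39, against 46% of all protein-coding genes.

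**Figure D4:**
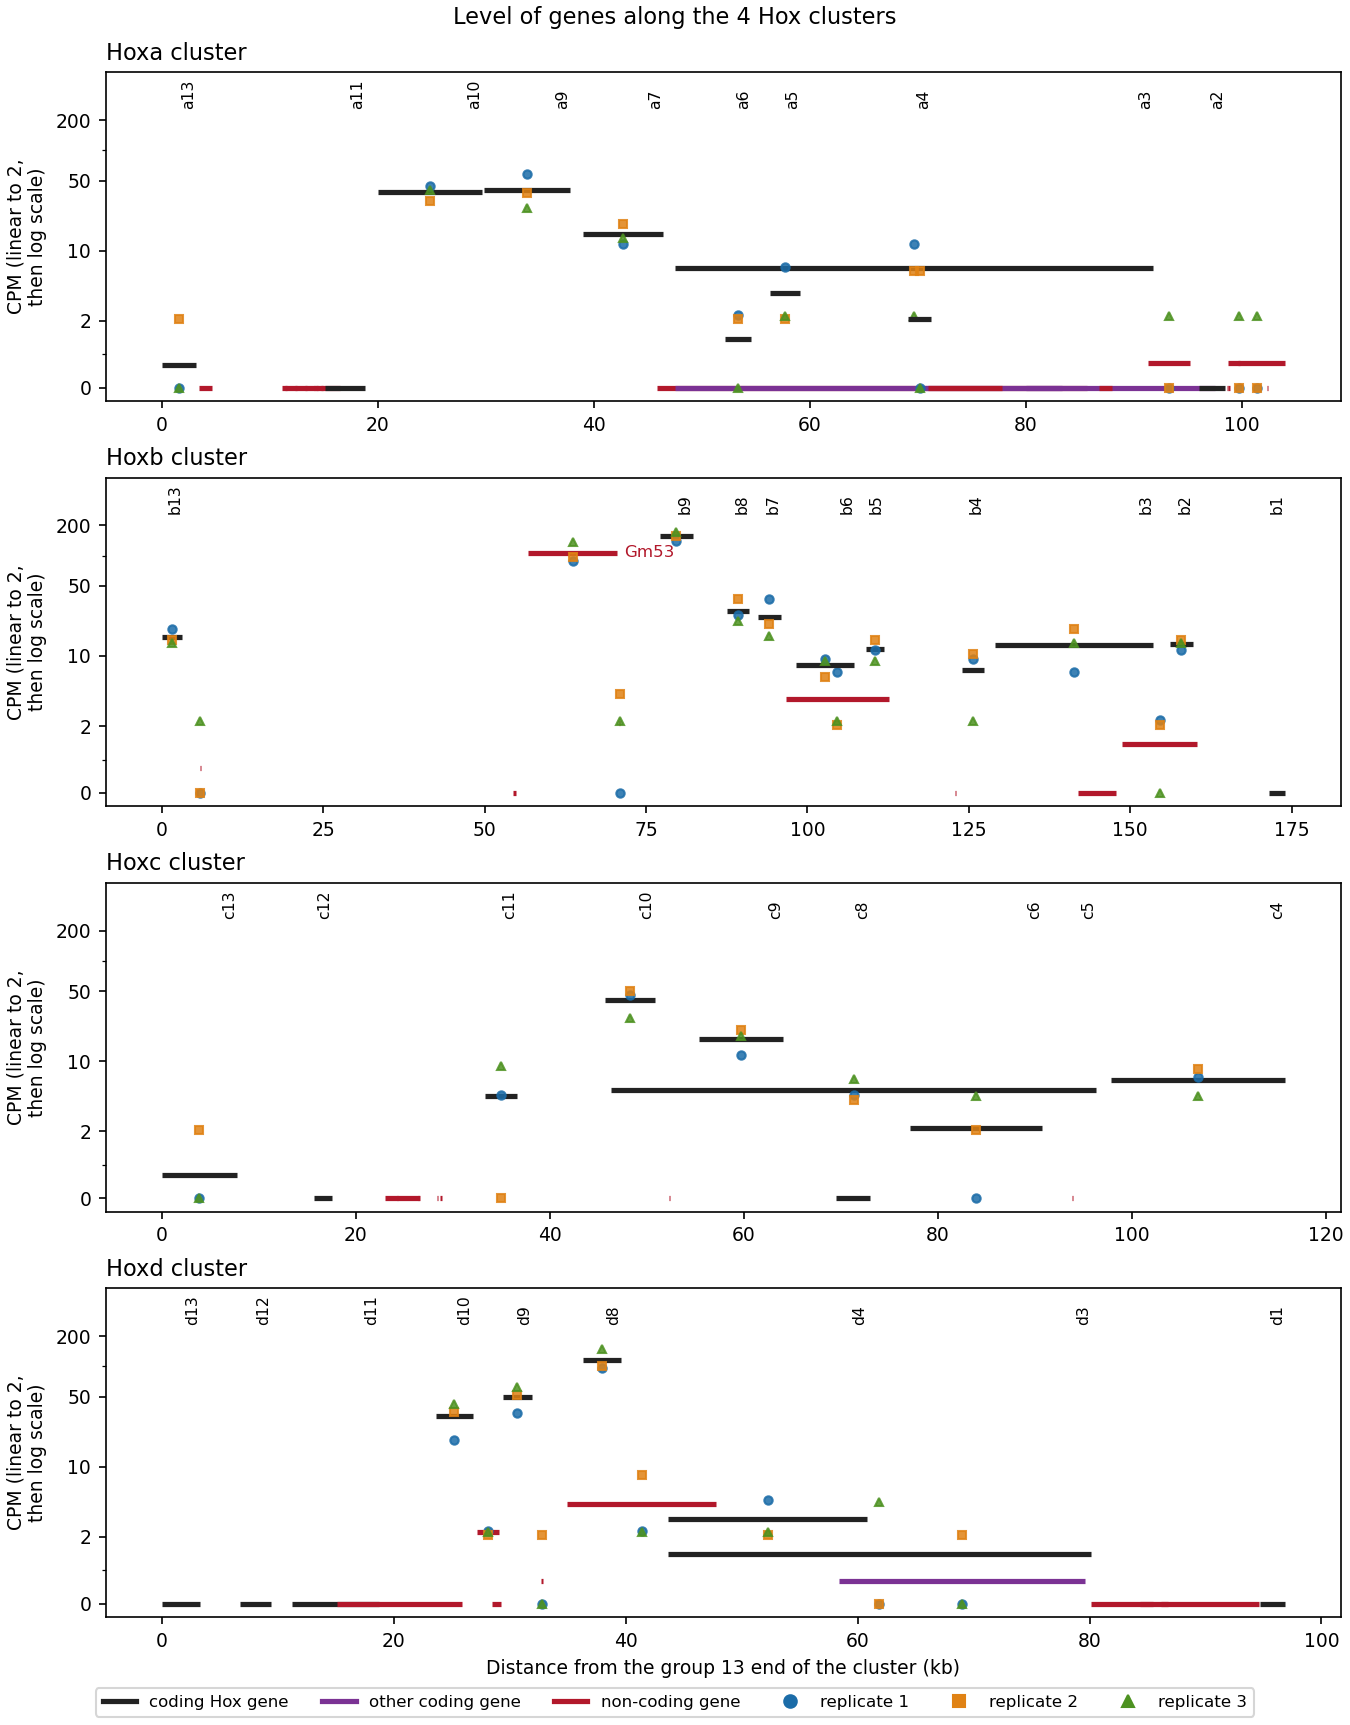
CPM of the cluster genes, except for 1 not reported here, against its distance in kilobases from the group 13 end of its cluster, with horizontal bars over the gene body at the mean level and points for the 3 libraries where a gene had a count. The vertical axis is linear up to 2 CPM and logarithmic above. The labels a13 to d1 stand at the 3′ end of each coding gene. Gm53 at 107 CPM is the one non-coding gene near the height of Hoxb9, and most other non-coding genes lie at 0.

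Of the 43 non-coding genes 11 (25.6%) had at least 1 count, against 8.18% of all genes that are not protein-coding, and 6 were detected, against 4.04%. At 10 CPM or more stood 1, against 0.418%. One gene held most of the signal. Gm53, a long intergenic RNA gene between Hoxb13 and Hoxb9 on the strand of the Hox genes, had 38, 47 and 61 counts, or 80.5, 90.6 and 127 TPM (99.2 ± 24.2 TPM; ENSMUSG00000078706, chromosome 11, 96251105 to 96264868). It took 86.4%, 82.5% and 88.4% of the non-coding counts of the clusters in the 3 libraries, 85.9% in all (79.7 to 90.7%). Gm53 ranked below Hoxb9 and Hoxd8 in every library. Hoxc10 (88.4 TPM) and Hoxb7 (87.4 TPM) also lay above it in replicate 1, and Hoxc10 (96.4 TPM) in replicate 2. Gm53 ends 6588 bases before Hoxb9 begins and had 0.441 times the level of Hoxb9 per length (0.355 to 0.547), with log2 ratios of -1.30, -1.32 and -0.96 (exact sign-flip permutation p = 0.25, adjusted p = 0.318 over 14 pairs). Its level lay 3.85-fold above that of Hoxb13 (2.43 to 6.41). None of its exon bases lie in exons of another gene, and 1.32% of its 50-base stretches occur in same-sense transcripts of other genes. Its genomic neighbour, the Mir196a-1 hairpin 295 bases downstream, had 0, 2 and 1 counts.

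The antisense RNAs had few counts. Of 9 genes with the antisense biotype 4 had a count (44.4%, against 8.18% of genes not protein-coding), 14 counts in all, and 3 were detected (33.3%, against 4.04%). The wider class holds genes of as few as 10 exon bases and the 9 antisense genes have 413 to 4201, so these shares are not of like genes. Hoxd3os1, which overlaps exons of Hoxd3 and Hoxd4 on the other strand, had 1, 4 and 1 counts (5.50 ± 4.49 TPM), Hoxb5os, opposite Hoxb5 and Hoxb6, had 3, 1 and 1 (19.7 ± 14.4 TPM, over 696 exon bases), Hoxb3os had 1, 1 and 0, and Hotairm1 had 0, 0 and 1. Hoxb3os stood at 0.112 times the level of Hoxb3 per length (0.0127 to 0.470), below it in all 3 libraries. This ratio is uncertain, since 76.2% of the exon bases of Hoxb3os and 52.9% of those of Hoxb3 lie in exons on the other strand. The effect of read assignment on it was not tested. Hoxb5os had 1.28 times the level of Hoxb6 per length (0.349 to 4.00), an interval that includes no difference. Gm14396, a long intergenic RNA gene between Hoxd10 and Hoxd9, had 1 count in each library, 0.172 times the level of Hoxd9 (0.0346 to 0.524), and Hoxaas2 had 1 count. The Hox RNAs best known for acting on chromatin, Hotair in the Hoxc cluster, and the genes Hoxa11os, Hoxaas3 and Haglr had 0 counts in every library. Of the 16 short segments annotated as misc_RNA, Gm27605 and Gm27861 had 1 count each and 14 had none, and the miRNA gene Gm44463 had 1. Every exon base of Gm27867 and Gm27868 lies in Hotairm1 exons on the same strand. The same holds for Gm28032, Gm27492, Gm27695 and Gm27543 in Hoxa11os exons. Shared reads may go uncounted, so the 0 counts of these segments are uncertain.

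How the reads were assigned to strands was examined because coding and antisense genes overlap here. Pairs were taken over the whole table of a gene that is not protein-coding and a coding gene of at least 100 counts. At least 80% of the exon bases of the first had to lie inside exons of the second. On opposite strands there were 77 such pairs. In 26 of these the nested gene had counts, 58 in all, which is 3.00% of what the rate of the coding gene per base would give. In 0 pairs did it exceed that rate. Of the 150 such pairs on the same strand, 0 had a count for the nested gene. Reads shared on the same strand may go uncounted under either strand setting. Reads from opposite strands are shared only if strand was ignored. Low counts there could come from uncounted shared reads or from low expression, so these values do not settle which setting was used. For antisense Hox genes, 76.2% of the exon bases of Hoxb3os and 14.4% of those of Hoxb5os lie in coding exons on the other strand.

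The mature sequences of the 4 clusters' best-known miRNAs are shown because their genes lie beside coding Hox genes with counts while the hairpins had few or none. Capitals mark the seed (bases 2 to 8 from the 5′ end), and the sequences are from RefSeq (GRCm38.p6).
miR-196a-5p (Mir196a-1, between Gm53 and Hoxb9; Mir196a-2, between Hoxc10 and Hoxc9): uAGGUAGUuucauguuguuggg
miR-196b-5p (Mir196b, inside Hoxa9): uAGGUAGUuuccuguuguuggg
miR-10a-5p (Mir10a, between Hoxb5 and Hoxb4): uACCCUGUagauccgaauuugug
miR-10b-5p (Mir10b, inside Hoxd3 and Hoxd4): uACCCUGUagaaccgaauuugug
miR-196a-5p and miR-196b-5p share 1 seed and differ by A12C, and miR-10a-5p and miR-10b-5p share another and differ by U12A, each counted from the 5′ end. Mir196a-2, Mir196b, Mir10a, Mir10b and Mir615 had 0 counts. These libraries were made from RNA broken into pieces of about 300 bases and not from small RNA, so counts on a hairpin do not measure the mature miRNA, and every base of Mir196b lies in a Hoxa9 exon on the same strand.

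The 9 TALE cofactor genes and Pbxip1, which encodes a PBX-binding protein, were detected, 10 of 10 against 50.6% of protein-coding genes. Pbx2 had 21, 27 and 14 counts (45.8 ± 12.8 TPM), Pbx3 25, 28 and 31 (37.2 ± 4.10 TPM) and Pbxip1 15, 20 and 15 (28.8 ± 3.50 TPM). Among the MEIS genes, Meis2 (31, 26 and 48 counts; 23.7 ± 8.36 TPM) lay above Meis3 (10.1 ± 4.20 TPM), and Meis1 had 2 counts, both in replicate 2. Pknox1 stood at 21.1 ± 4.44 TPM and Pknox2 had 2 counts, both in replicate 1. The list's median was 22.4 TPM, against 1.51 TPM for all protein-coding genes and 31.4 TPM for those detected. Pbx2 and Pbx3 were below Hoxb9 and Hoxd8 and in the range of Hoxa10 and Hoxb8.

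Of 20 genes known to act upstream of Hox clusters 11 were detected, a share near the 50.6% of all protein-coding genes, with a median of 19.5 TPM. Gmnn, which encodes the replication and Polycomb partner geminin, was highest at 135 ± 37.9 TPM, followed by the MLL complex genes Men1 (79.1 ± 6.90 TPM) and Psip1 (78.8 ± 6.47 TPM) and the retinoid receptor gene Rxra (60.0 ± 16.4 TPM). The methyltransferase gene Kmt2a stood at 30.4 ± 4.26 TPM. For retinoic acid, the receptors Rarg (51.4 ± 10.4 TPM) and Rara (34.4 ± 8.83 TPM) were detected and Rarb had 1 count. Of its synthesis and breakdown enzymes, Aldh1a2 (25.2 ± 12.9 TPM) and Cyp26a1 (13.8 ± 6.86 TPM) were detected, and Aldh1a1, Cyp26b1 and Cyp26c1 had 0 counts, as did Rxrg and the caudal genes Cdx1, Cdx2 and Cdx4.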

How the data were processed

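In the authors' deposited table, 3 libraries of ribosome-depleted total RNA are given as raw read counts for each Ensembl identifier. Per the submitters' processing notes the build was mm10 and the tools included STAR and HTSeq. The sources used here give neither versions nor the strand setting.

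GENCODE M21 gave names, positions and exon lengths for 55227 of 55487 genes. Library sizes were totals scaled by trimmed means of M-values (edgeR 4.0.16, R 4.3.3), and TPM used the union of exons. Each gene's counts were tested against library size by chi-square with Benjamini-Hochberg adjustment over all genes of at least 1 CPM, a test checked on simulated counts. Since separate cultures are not stated, p-values reflect spread that may be technical. Gene pairs were compared as log2 ratios per length with 0.5 counts added, by an exact sign-flip test; 95% exact binomial intervals were computed for the ratio of their total counts. Ratios to a gene at 0 used 3 counts over all libraries. Alternatives included DESeq2 1.42.0 size factors, library totals, other lengths, pseudocounts and filters, and leaving out each replicate. Members and lists were chosen with earlier results of these data known. The rule named all coding Hox genes of at least 10 CPM or at 0, every non-coding gene with a count, the 4 highest genes and those at 0 of each other list, and 2 coding genes on either side of each cluster. A few genes that the rule names are not reported here. Other genes and the border pairs were named with values seen.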

Additional observations from a re-analysis of the deposited data

How the results depend on the processing

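The number of coding Hox genes detected was 28 with each scaling and 27 to 30 with 1 replicate left out, 22 when a count in every library was asked for and 17 at 10 counts or more. The number of non-coding genes detected was 6, and 11, 10 and 7 without replicates 1, 2 and 3, because with 2 libraries a single count passes 1 CPM, and 1 (Gm53) at 10 counts or more. The 0 cluster genes that differed between libraries stayed at 0 under every alternative run, with 0 to 4 at an unadjusted p under 0.05. With the longest transcript as length, the Hoxb and Hoxc sums were 336 and 107 TPM, and Hoxc lay below Hoxa (125 TPM). Without division by length, the Hoxb, Hoxc and Hoxd sums were 278, 76.8 and 202 CPM and the medians of groups 1 to 6 and 7 to 10 were 3.36 and 35.2 CPM, and Hoxc again lay below Hoxa (110 CPM). The median of groups 7 to 10 was 42.9 to 54.5 TPM with 1 replicate left out, with the lowest without replicate 1.

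Of the 15 pairs of neighbours, 5 had 1 direction in every library, and 6 to 11 when only 2 libraries had to match (11, 6 and 8 without replicates 1, 2 and 3). The direction reversed for neighbours whose order was not resolved, given as mean log2 ratios. With the longest transcript these were Hoxd10 to Hoxb7 (-0.11), Hoxb8 to Hoxa9 (-0.17), Hoxa9 to Hoxb13 (0.73), Hoxa9 to Hoxc9 (0.75) and Hoxc9 to Hoxa7 (-0.048). Without length they were Hoxb7 to Hoxa10 (-0.70), Hoxb8 to Hoxa9 (-0.47), Hoxa9 to Hoxb13 (1.28), Hoxa9 to Hoxc9 (1.20), Hoxb13 to Hoxc9 (-0.081) and Hoxd10 to Hoxa10 (-0.32), and among the 14 non-coding to coding pairs Hoxb5os to Hoxb6 (-1.06). With a pseudocount of 0.1, Hoxa9 to Hoxc9 was 0.041. With 1 replicate left out in turn, the ranges were -0.33 to 0.46 for Hoxd9 to Hoxc10, -0.15 to 0.81 for Hoxc10 to Hoxd10, -0.34 to 0.82 for Hoxd10 to Hoxb7, -0.058 to 0.48 for Hoxa10 to Hoxb8, -0.22 to 0.10 for Hoxa9 to Hoxb13, -0.30 to 0.26 for Hoxb13 to Hoxc9 and -0.51 to 0.32 for Hoxa9 to Hoxc9. The cause was not tested. Gene pairs were compared within each library, but no paired comparison of conditions was possible because the labels give 1 group.

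At this depth 1 count is worth 2.07 to 2.29 CPM, so genes of groups 1 to 6 and the antisense RNAs rest on few reads, and a gene at 0 may have counts in a deeper library.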

Other observations

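Genes beside the clusters showed no common level. Next to the group 13 ends, Evx1 (beside Hoxa13) and Evx2 (beside Hoxd13), homeobox genes that descend from the same ancestral cluster, had 0 counts in every library, and beyond them Hibadh had 9.55 ± 0.378 TPM and Lnpk 14.2 ± 2.09 TPM. Beside Hoxb13, Ttll6 had 1 count and Calcoco2 had 0. Beside Hoxc13, Calcoco1 stood at 36.0 ± 9.74 TPM and Atp5g2 at 36.7 ± 18.8 TPM. Next to the group 1 ends, Mtx2 (47.0 ± 3.04 TPM) and Hnrnpa3 (234 ± 19.2 TPM) lie beyond Hoxd1, while Skap1 beside Hoxb1 had 0 counts and Snx11 after it 13.4 ± 1.93 TPM. Smug1 beside Hoxc4 had 13.8 ± 4.84 TPM, and Cbx5, which encodes the heterochromatin protein HP1 alpha, had 432 ± 33.2 TPM.

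Other homeobox genes related to Hox genes were almost without counts. Of 10, 9 had 0 counts (Evx1, Evx2, Gsx1, Gsx2, Meox1, Meox2, Gbx1, Gbx2 and Mnx1), against 46% of all protein-coding genes. Pdx1, known from pancreas and duodenum, had 0, 2 and 3.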
